A study of Mus musculus with 7 samples.

Results

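Transcripts of 9 two-pore potassium channel genes (Kcnk1, Kcnk2, Kcnk3, Kcnk4, Kcnk6, Kcnk9, Kcnk10, Kcnk12 and Kcnk13) were measured in ERα neurons that do or do not respond to temperature. The members were chosen by gene symbol, from 24062 symbols with counts, and all 9 had enough counts to be tested. Neurons were recorded in slices of the medial preoptic area (MPA) from Esr1-ZsGreen mice, in which green fluorescence marks cells that express Esr1, the gene of ERα. The study's methods describe the mice as female and 10 to 14 weeks old. All neurons of both groups were ZsGreen positive and were recorded before and during the same warming of the bath, and the groups differ in the firing response to it. The study names fewer mice for its recorded neurons than there are samples, so some samples probably share an animal and p-values may be too small. The study gives different cutoffs for this response in its results and in its methods. The contents of 2 neurons with a similar response were drawn into the pipette and pooled as a sample, giving 4 temperature-responsive and 3 non-responsive samples.

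Two-pore channels pass the potassium leak that holds a neuron near its resting potential, and a channel is built from a pair of subunits that each carry a pair of pore loops. Their activity is set by physical and chemical signals rather than by voltage alone. TREK-1 (Kcnk2), TREK-2 (Kcnk10) and TRAAK (Kcnk4) open with warmth, membrane stretch and fatty acids, TASK channels (Kcnk3 and Kcnk9) close in acid, and the TWIK (Kcnk1 and Kcnk6) and THIK (Kcnk12 and Kcnk13) channels make up further subfamilies. In warm-sensitive neurons of the preoptic area, leak potassium channels are among the conductances studied as a setter of firing rate.

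Temperature-responsive samples had fewer counts in total (1914497 to 2814360) than non-responsive samples (3309361 to 5125280). They had more genes with at least 1 count, 19852 to 21177 against 17818 to 19820. The pan-neuronal gene Snap25 and 4 other neuronal markers were detected in every sample, and Esr1 had between 10 and 27 counts. Astrocyte, oligodendrocyte and microglia markers were also detected in every sample, so the counts do not come from neurons alone. The Y-linked gene Ddx3y had 684 to 1150 counts per sample and Xist 2 to 14, which does not match the female mice of the methods. Summed levels of 5 endothelial genes were 63.4 to 191 CPM (counts relative to the normalized total of the library) in temperature-responsive and 11.9 to 40.1 CPM in non-responsive samples, and 4 of the 5 were higher in temperature-responsive samples. The 5 oligodendrocyte markers summed to 2796 to 3801 CPM in temperature-responsive and 2372 to 3000 CPM in non-responsive samples. The 5 neuronal markers summed to 2465 to 2831 CPM and 2263 to 2607 CPM in the same groups. None of the 25 markers was at 0 in any sample.

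Of the 9 members, 3 differed between the groups and all 3 were lower in temperature-responsive samples. These were Kcnk4 (TRAAK), Kcnk12 (THIK-2) and Kcnk3 (TASK-1), which fell by 1.21, 0.78 and 0.59 on the log2 scale. The threshold was an adjusted p of 0.05 in edgeR's quasi-likelihood test, by Benjamini-Hochberg over the 14407 genes tested, and 30.0% of all genes passed it, 14.9% lower and 15.1% higher. Higher genes made up 50.3% of these calls, 62.1% with upper quartile scaling and 42.1% with library size only, and the same 3 members passed under both. The members' share of 33.3% called was thus close to that of all genes. The remaining 6 members, Kcnk1, Kcnk2, Kcnk6, Kcnk9, Kcnk10 and Kcnk13, did not pass, and no member was higher at an unadjusted p under 0.05 (0 with edgeR and 0 with DESeq2), whereas 4 were lower at that level with edgeR. With upper quartile scaling (Kcnk1) and without temperature-responsive sample 3 (Kcnk6), 1 member was higher at that level. The median log2 fold change was 0.098 over the members and 0.0071 over all genes tested. With genes detected as a covariate, 0 members passed (1 was lower at an unadjusted p under 0.05), as 1 gene of all those tested did. The difference in genes detected and the difference in temperature response cannot be told apart here. In pooled neurons, fewer cells with a transcript and less of it per cell also cannot be told apart.

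**Figure D1:**
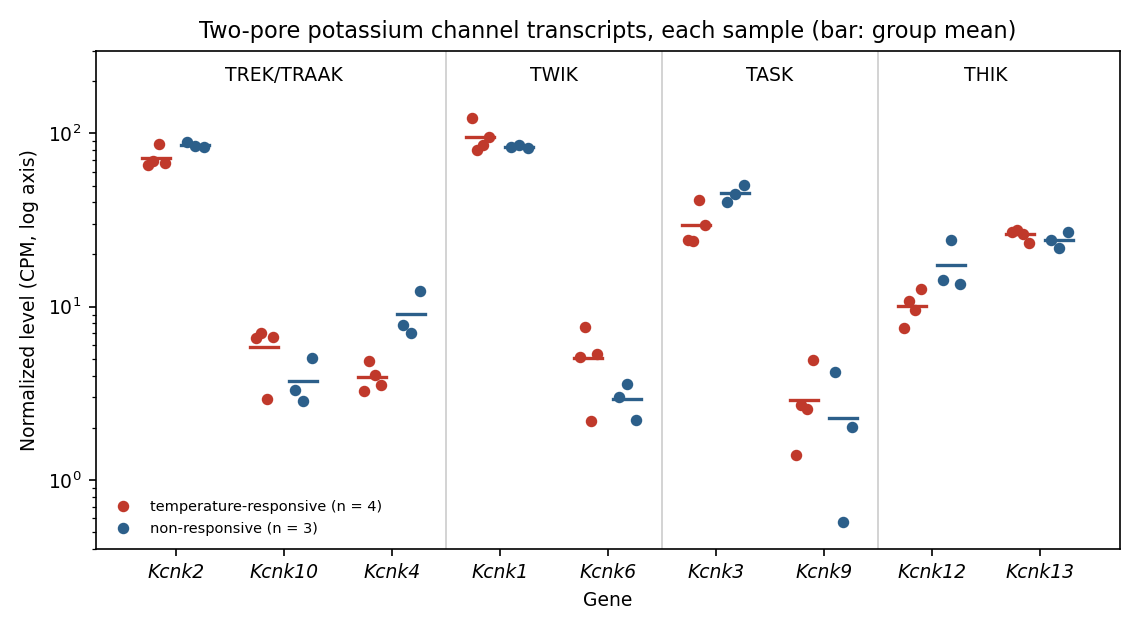
Normalized level (CPM, log axis) of each member in each of the 4 temperature-responsive (red) and 3 non-responsive (blue) samples, with the group means as bars. Kcnk4 and Kcnk12 are the members whose groups do not overlap, with every temperature-responsive sample below every non-responsive sample.

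Kcnk2, Kcnk10 and Kcnk4 encode the heat-sensitive TREK and TRAAK channels, and of their transcripts that of Kcnk4 passed the threshold, as lower, while those of Kcnk2 and Kcnk10 did not. The bases around the start of transcription of each gene are shown because these 3 related channels are the ones that warmth itself opens (RefSeq, GRCm38.p6, 250 bases before to 50 after the start, minus strand, the most upstream start where the table held several). Capitals mark the GC box (GGGCGG) and the core of the heat shock element (GAANNTTC), searched on both strands, which do not overlap in these windows.
Kcnk2, chr1:189402224-189402523: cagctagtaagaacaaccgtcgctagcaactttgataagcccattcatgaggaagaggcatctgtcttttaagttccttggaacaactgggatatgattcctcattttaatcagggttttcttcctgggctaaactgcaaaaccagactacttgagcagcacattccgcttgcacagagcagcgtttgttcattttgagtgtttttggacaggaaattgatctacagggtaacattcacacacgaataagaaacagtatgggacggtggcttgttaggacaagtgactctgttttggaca
Kcnk10, chr12:98578164-98578463: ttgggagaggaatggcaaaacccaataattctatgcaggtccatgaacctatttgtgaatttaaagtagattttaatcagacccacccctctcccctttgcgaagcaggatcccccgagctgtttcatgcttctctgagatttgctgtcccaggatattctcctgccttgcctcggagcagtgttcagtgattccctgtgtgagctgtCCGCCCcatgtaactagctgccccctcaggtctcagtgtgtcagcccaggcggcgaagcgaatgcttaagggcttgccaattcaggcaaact
Kcnk4, chr19:6934466-6934765: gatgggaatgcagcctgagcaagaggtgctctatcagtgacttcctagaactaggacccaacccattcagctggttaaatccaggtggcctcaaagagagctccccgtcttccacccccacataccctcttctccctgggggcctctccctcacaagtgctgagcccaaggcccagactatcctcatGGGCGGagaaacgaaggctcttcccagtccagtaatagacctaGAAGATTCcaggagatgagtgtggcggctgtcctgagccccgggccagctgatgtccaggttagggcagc
The Kcnk4 window held 1 match to each motif, the Kcnk10 window 1 GC box, and the Kcnk2 window no match to either. Among the 32851 promoters of the same length in the table, 35.7% held a GC box and 7.86% a heat shock element core. No palindromic oestrogen response element (in 0.07% of all promoters) and no cAMP response element (TGACGTCA, 1.79%) was found in these 3 windows. GC content was 57.3% in the Kcnk4 window, 51% in that of Kcnk10 and 43% in that of Kcnk2.

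Kcnk4, which encodes TRAAK, showed the largest fall of the members in this test. It lies on chromosome 19 of mm10 from 6923966 to 6934515 on the minus strand. Its level in the temperature-responsive samples 1 to 4 was 3.27, 4.88, 4.02 and 3.54 CPM, from 7 to 11 counts. In the non-responsive samples 1 to 3 it was 7.85, 7.01 and 12.3 CPM, from 26 to 61 counts. The groups did not overlap, and all 4 temperature-responsive samples lay below 5 CPM. The means were 3.93 ± 0.706 CPM (SD, n = 4) and 9.05 ± 2.84 CPM (SD, n = 3), and the log2 fold change was -1.21 (SE 0.36, adjusted p = 0.0135, edgeR), or 2.32-fold lower. Non-responsive sample 3 was the highest of the 7, and without it the log2 fold change was -0.92 and did not pass (adjusted p = 0.126, edgeR). Of the exonic bases of Kcnk4, 13.1% are shared with Catsperz, a sperm ion channel gene on the same strand counted as Tex40, whose log2 fold change was -0.28 (SE 0.33, adjusted p = 0.548, edgeR).

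Kcnk2, which encodes TREK-1, was the most abundant of the heat-sensitive members. It lies on chromosome 1 from 189207930 to 189402273. The temperature-responsive samples 1 to 4 had 65.5, 68.9, 86.3 and 67.2 CPM and the non-responsive samples 1 to 3 had 89, 85.1 and 83.7 CPM, from 127 to 449 counts. Of the 4 temperature-responsive samples, 3 were below all non-responsive samples and sample 3 lay among them. The log2 fold change was -0.25 (SE 0.12, adjusted p = 0.117, edgeR). Leaving out temperature-responsive sample 3 gave -0.35, past the threshold (adjusted p = 0.0467, edgeR), and it also passed with all genes that had at least 1 count (adjusted p = 0.0402, edgeR). The antisense gene A430027H14Rik shares 12.2% of the exonic bases of Kcnk2, and reads of the 2 strands may not have been told apart.

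Kcnk10, which encodes TREK-2, was low and its groups overlapped. It lies on chromosome 12 from 98429437 to 98578310. The temperature-responsive samples had 6.55, 7.05, 2.93 and 6.72 CPM, from 8 to 19 counts, and the non-responsive samples 3.32, 2.84 and 5.04 CPM, from 11 to 25 counts. Temperature-responsive samples 1, 2 and 4 lay above all non-responsive samples and sample 3 below 2 of them. The log2 fold change of 0.61 (SE 0.44, adjusted p = 0.310, edgeR) did not exceed the spread between samples. The summed level of Kcnk2, Kcnk10 and Kcnk4 was 81.7 ± 8.01 CPM (SD, n = 4) with a temperature response against 98.7 ± 3.29 CPM (SD, n = 3) without, most of it from Kcnk2. The groups did not overlap, but temperature-responsive sample 3 (93.2 CPM) was close to non-responsive sample 2 (94.9 CPM). The sum of the TASK genes was also lower without overlap (32.6 ± 8.31 against 47.4 ± 4.37 CPM, SD, same groups). Those of the TWIK and THIK genes overlapped, and no sum was tested.

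Within each sample, the counts of Kcnk4 and of its relatives could be set against each other without any scaling between libraries. Kcnk4 had 5, 7.09, 4.66 and 5.26% of the counts of Kcnk2 in the temperature-responsive samples and 8.81, 8.24 and 14.7% in the non-responsive samples. Against Kcnk10, Kcnk4 had 50, 69.2, 138 and 52.6% in the temperature-responsive samples and 236, 247 and 244% in the non-responsive samples. The groups did not overlap in either ratio. Both ratios contain the Kcnk4 counts, so neither is separate from the difference in Kcnk4 itself. Kcnk4 had more counts than Kcnk10 in all non-responsive samples and in 1 of the 4 temperature-responsive samples. In the other pairs of members of the same subfamily the groups overlapped. A test of the difference itself, over the 6 pairs of members of the same subfamily, was chosen after the values were seen. The difference in log2 ratio, temperature-responsive minus non-responsive, was -0.86 for Kcnk4 to Kcnk2 and -1.73 for Kcnk4 to Kcnk10 (exact permutation test, two-sided, p = 0.0571 each, adjusted p = 0.171, where 0.0286 is the smallest p that 4 samples against 3 allow). With 6 pairs, a single pair at the smallest p has an adjusted p of 0.171, so the test could hardly pass and says nothing on whether the members of a pair responded alike.

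The TWIK genes showed no difference that passed the threshold. Kcnk1, which encodes TWIK-1, a weak potassium leak found in neurons and astrocytes, lies on chromosome 8 from 125995170 to 126030685. It had 122, 79.7, 85.6 and 95.2 CPM in the temperature-responsive and 83.3, 86.2 and 81.9 CPM in the non-responsive samples, from 147 to 455 counts. Temperature-responsive sample 1 was the highest of the 7 and the other 6 lay within 79.7 to 95.2 CPM. The log2 fold change of 0.19 (SE 0.12, adjusted p = 0.263, edgeR) was 0.051 without that sample. Gm45875 shares 8.01% of the exonic bases of Kcnk1. Kcnk6, which encodes TWIK-2, lies on chromosome 7 from 29221926 to 29232515. It had 5.15, 7.59, 2.19 and 5.31 CPM in the temperature-responsive and 3.02, 3.6 and 2.22 CPM in the non-responsive samples, from 6 to 19 counts. The groups overlapped through temperature-responsive sample 3, and the log2 fold change was 0.74 (SE 0.48, adjusted p = 0.256, edgeR). Astrocytes and microglia also use TWIK channels. The 5 astrocyte markers summed to 1090 to 1270 CPM in temperature-responsive and 882 to 1075 CPM in non-responsive samples. Of these markers 2 were higher and 1 lower. Their part in the values of Kcnk1, Kcnk6 and, outside this subfamily, Kcnk2 was not tested.

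Of the TASK genes, Kcnk3 was lower in temperature-responsive samples. Kcnk3 encodes TASK-1, a leak channel that acid and Gq-coupled receptors close, and lies on chromosome 5 from 30588170 to 30625271. It had 24.3, 23.9, 41 and 29.7 CPM in the temperature-responsive and 40.1, 44.9 and 50.4 CPM in the non-responsive samples, from 44 to 250 counts. Temperature-responsive sample 3 lay just above non-responsive sample 1, and the other 3 lay below all non-responsive samples. The means were 29.7 ± 7.95 CPM (SD, n = 4) and 45.1 ± 5.14 CPM (SD, n = 3), a log2 fold change of -0.59 (SE 0.17, adjusted p = 0.0132, edgeR), or 1.5-fold lower. It did not pass without temperature-responsive sample 2 (-0.50, adjusted p = 0.0553, edgeR) or without non-responsive sample 3 (-0.50, adjusted p = 0.0687, edgeR), nor with an offset for GC content (-0.40, adjusted p = 0.0796, edgeR). Gm9899, on the opposite strand, shares 5.76% of its exonic bases. Kcnk9, which encodes TASK-3 and lies on chromosome 15 from 72501089 to 72546340, had only 3 to 14 counts per sample. Its levels ran from 1.4 to 4.95 CPM in the first group and from 0.568 to 4.22 CPM in the second, with a log2 fold change of 0.49 (SE 0.63, adjusted p = 0.589, edgeR) that turned negative in 2 of the 11 alternatives that tested it. The counts of Kcnk9 were the lowest of the members.

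Of the THIK genes, Kcnk12 was lower in temperature-responsive samples and Kcnk13 differed by less than its standard error. Kcnk12 encodes THIK-2, a subunit that reaches the cell surface poorly, and lies on chromosome 17 from 87745801 to 87797994. The bases around its start of transcription are shown as those of the other member without overlap between the groups, with the same motifs in capitals and on the minus strand.
Kcnk12, chr17:87797945-87798244: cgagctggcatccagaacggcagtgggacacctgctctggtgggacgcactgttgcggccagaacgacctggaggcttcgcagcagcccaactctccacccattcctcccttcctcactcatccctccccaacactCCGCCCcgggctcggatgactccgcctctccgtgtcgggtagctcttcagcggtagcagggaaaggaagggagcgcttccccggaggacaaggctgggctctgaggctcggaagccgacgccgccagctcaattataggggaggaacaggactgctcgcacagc
This window held 1 GC box, on the opposite strand, no heat shock element core, and 64.3% GC. The level of Kcnk12 was 7.48, 10.8, 9.51 and 12.7 CPM in the temperature-responsive and 14.2, 24.4 and 13.5 CPM in the non-responsive samples, from 16 to 129 counts. Every temperature-responsive sample was lower than every non-responsive sample, and non-responsive sample 2 stood above the rest. The means were 10.1 ± 2.21 CPM (SD, n = 4) and 17.4 ± 6.13 CPM (SD, n = 3), a log2 fold change of -0.78 (SE 0.26, adjusted p = 0.0283, edgeR), or 1.72-fold lower. This call was the least stable of the 3, and was lost in 10 of 18 alternatives. With DESeq2 the adjusted p was 0.0573, with the GC content offset the log2 fold change was -0.34 (adjusted p = 0.384, edgeR), and without non-responsive sample 2 it was -0.43 (adjusted p = 0.295, edgeR). It was also lost without temperature-responsive sample 1, 2 or 3 in turn (adjusted p from 0.0566 to 0.0714, edgeR).

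Kcnk13, which encodes THIK-1, the channel that carries the resting potassium current of microglia, lies on chromosome 12 from 99964499 to 100062682. It had 27.1, 27.7, 26.3 and 23.4 CPM in the temperature-responsive and 24.1, 21.8 and 27 CPM in the non-responsive samples, from 51 to 134 counts. The groups overlapped throughout, and the log2 fold change was 0.098 (SE 0.18, adjusted p = 0.708, edgeR). The 5 microglia markers summed to 273 to 308 CPM in temperature-responsive and 307 to 326 CPM in non-responsive samples, with 1 of them higher and 1 lower, and their part in the Kcnk13 counts was not tested. Kcnk12 had 39.4 ± 11.3% (SD, n = 4) of the counts of Kcnk13 with a temperature response and 73.6 ± 33.7% (SD, n = 3) without, and the groups overlapped (exact permutation test of the log2 ratio, two-sided, p = 0.0857, adjusted p = 0.171 over the 6 pairs).

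**Figure D2:**
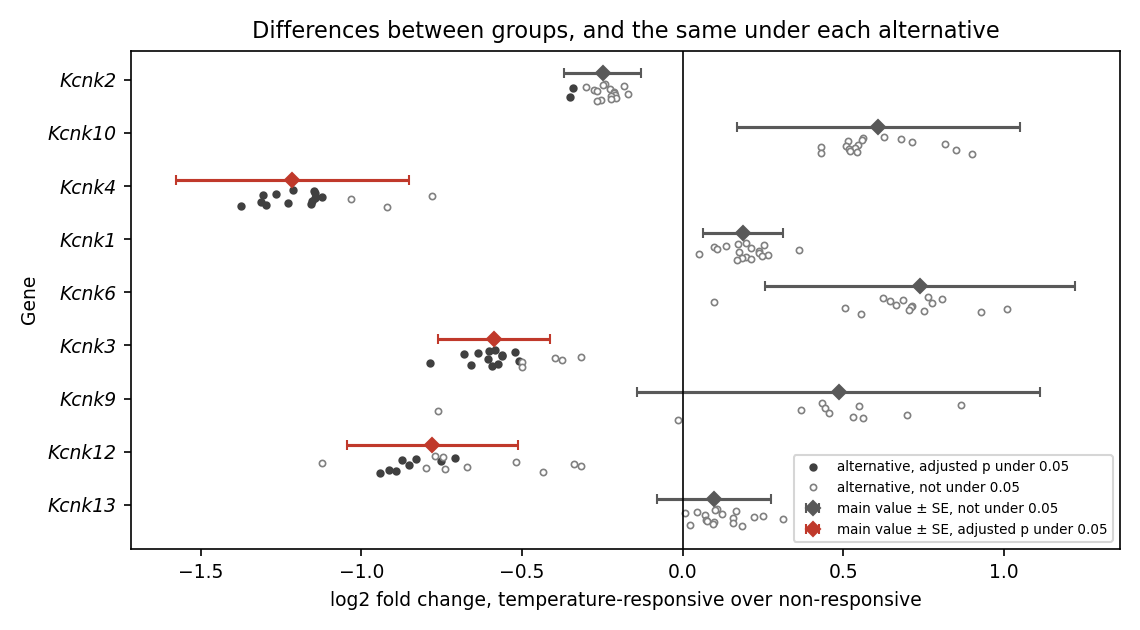
log2 fold change of each member, temperature-responsive over non-responsive, with the standard error (diamonds, red where the adjusted p was under 0.05) and the value under each alternative (circles, filled where the adjusted p was under 0.05). Kcnk4, Kcnk3 and Kcnk12 lie below 0 in every alternative that tested them, and Kcnk9 is the member with values on both sides of 0.

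The fold changes of all genes followed GC content, and the 3 members that fell, like 4 of the others, were richer in G and C than most genes. The longest transcript of Kcnk12 was 69.4% GC, above 99.97% of the genes tested, that of Kcnk3 59.1% (above 93.4%) and that of Kcnk4 54.0% (above 72.3%). Kcnk13, which did not fall, had 55.8% (above 80.8%), more than Kcnk4, and Kcnk1, Kcnk2 and Kcnk6 lay above 57.4 to 60.4% of genes, whereas Kcnk9 and Kcnk10 lay above 39.8% and 32.5%. Among all genes tested with 60% GC or more, 30.8% were called lower and 5.87% higher in temperature-responsive samples, against 3.69% lower and 29.1% higher below 45% GC. The median log2 fold change was -0.29 in the first class and 0.23 in the second. With an offset for this trend, Kcnk4 was the 1 member that passed (log2 fold change -1.12, adjusted p = 0.0261, edgeR). With genes detected as a covariate, the log2 fold changes of Kcnk4, Kcnk3 and Kcnk12 were -0.78, -0.32 and -1.12, with adjusted p of 0.573, 0.661 and 0.265 (edgeR).

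**Figure D3:**
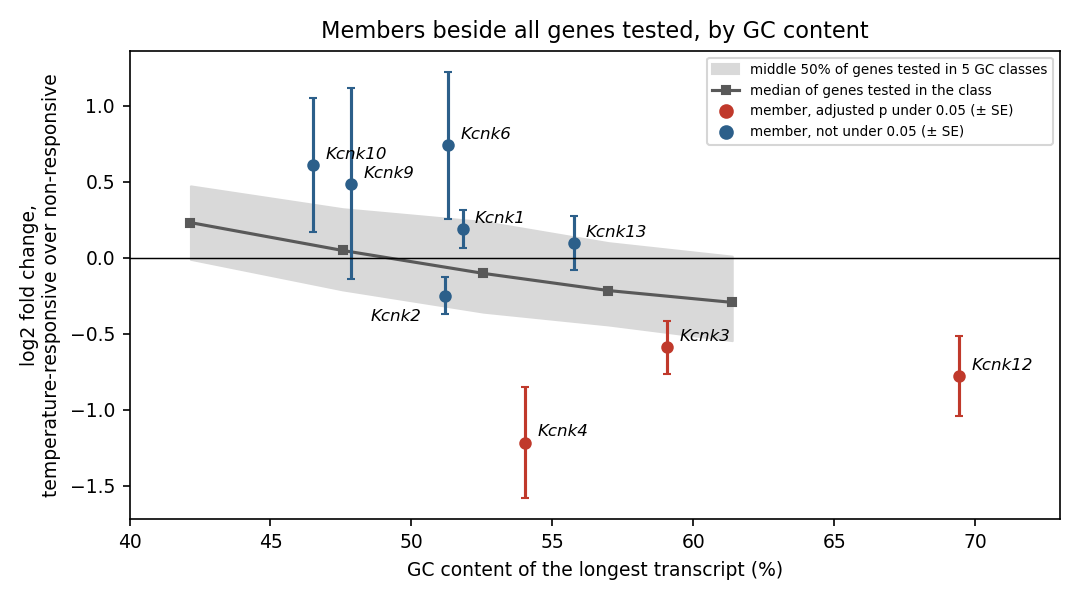
log2 fold change of the 9 members (points ± SE, red where the adjusted p was under 0.05) against the GC content of their longest transcript (%), beside the median (squares) and middle 50% (grey) of all genes tested in 5 classes of GC content. Kcnk4, Kcnk3 and Kcnk12 lie in classes where the median of all genes is below 0. Each is also below the lower edge of the middle 50% of its class (-0.36, -0.44 and -0.54 in turn). Kcnk12, at 69.4% GC, lies beyond the end of the grey band at 61.4%.

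Levels of different members were compared per kilobase of merged exons, within each sample. Only length was adjusted for. GC content ran from 46.5% (Kcnk10) to 69.4% (Kcnk12) among the members, and its part in these levels was not tested. Kcnk1 was the highest, with a median of 38.3 CPM per kilobase over the 7 samples (lowest 35.7, highest 54.4), followed by Kcnk2 at 16.9 (13.2 to 18), Kcnk3 at 10.1 (6 to 12.7), Kcnk13 at 8.46 (7 to 8.89) and Kcnk12 at 6.46 (3.8 to 12.4). The other 4 lay lower, Kcnk4 at 1.09 (0.733 to 2.75), Kcnk6 at 0.867 (0.529 to 1.83), Kcnk10 at 0.574 (0.324 to 0.804) and Kcnk9 at 0.208 (0.0462 to 0.403) CPM per kilobase. Of the 8 steps between neighbours in this order, 4 exceeded the spread between samples. Kcnk1 was 2.56-fold above Kcnk2, Kcnk2 1.77-fold above Kcnk3, Kcnk12 5.01-fold above Kcnk4 and Kcnk10 2.82-fold above Kcnk9, each in 7 of 7 samples (exact paired permutation test, two-sided, p = 0.0156 each, the smallest p that 7 samples allow, adjusted p = 0.0313 over the 8 steps). Neighbours that did not differ beyond their spread were Kcnk3 and Kcnk13, Kcnk13 and Kcnk12, Kcnk4 and Kcnk6, and Kcnk6 and Kcnk10 (exact paired permutation test, adjusted p = 0.5625, 0.25, 0.429 and 0.05). The order was set on all 7 samples, and that of the group means differed between the groups in all but the last of these pairs. The mean of Kcnk13 was above that of Kcnk3 in temperature-responsive samples (8.39 and 7.47 CPM per kilobase). In non-responsive samples it was below that of Kcnk3 (7.81 and 11.4) and below that of Kcnk12 (8.81). The latter came from non-responsive sample 2 alone, with 12.4 for Kcnk12 and 7 for Kcnk13. Kcnk13 was the higher in non-responsive samples 1 (7.76 against 7.19) and 3 (8.68 against 6.85). Kcnk4 was above Kcnk6 in all 3 non-responsive samples and in 1 of the 4 temperature-responsive samples. The size of a step depended on the length used. Per kilobase of the longest transcript, the median was 1.92 CPM for Kcnk4 and 23.4 CPM for Kcnk2. Those of Kcnk1 (38.3) and Kcnk12 (6.46) were unchanged, and the steps were not tested with that length.

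**Figure D4:**
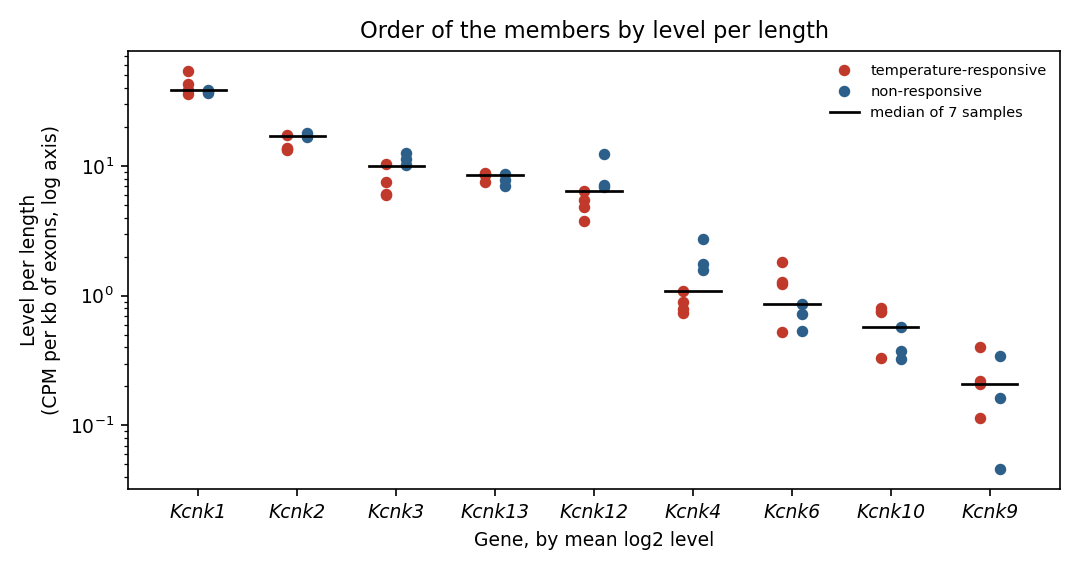
Level per length (CPM per kilobase of merged exons, log axis) of each member in the temperature-responsive (red) and non-responsive (blue) samples, with the median of the 7 samples as a bar. Kcnk1 stands above all others in every sample. With merged exons as the length, a gap of 5.01-fold separates Kcnk12 from Kcnk4.

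All 9 members together reached 251 ± 13.4 CPM (SD, n = 4) with a temperature response and 275 ± 4.74 CPM (SD, n = 3) without. The groups did not overlap, but temperature-responsive sample 1 (262 CPM) was close to non-responsive sample 1 (269 CPM). Most of this sum came from Kcnk1 and Kcnk2, of which neither passed the threshold. It was taken with TMM scaling only and was not tested. CPM of 2 of the 9 members (22.2%) were lower without overlap and of 0 higher, against 18.2% and 17.2% of all genes tested. Of the other 5 two-pore genes of the mouse, all but Kcnk7 were near the limit of detection. Kcnk5, Kcnk15, Kcnk16 and Kcnk18 had 0 to 11 counts per sample and were not tested. For scale, 3 counts were 0.568 CPM in non-responsive sample 2 (Kcnk15) and 1.4 CPM in temperature-responsive sample 1 (Kcnk18). Kcnk7, a subunit for which no current is known, had 4 to 18 counts and a log2 fold change of 0.93 (SE 0.48, adjusted p = 0.144, edgeR), which passed without temperature-responsive sample 1 (1.21, adjusted p = 0.0461, edgeR).

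Of 18 genes whose proteins bind or regulate two-pore channels, temperature-responsive samples had 4 at a higher and 2 at a lower level. This share of 33.3% was close to the 30.0% of all genes (15.1% higher and 14.9% lower). The median log2 fold change of the 18 genes was 0.061. Among the higher genes were Ywhaz (log2 fold change 0.48, adjusted p = 0.00241, edgeR) and Ywhab (0.26, adjusted p = 0.0462, edgeR), which encode 14-3-3 proteins that bring TASK channels to the surface, and Arf6 (0.42, adjusted p = 0.0134, edgeR), a GTPase of TWIK-1 recycling. The lower genes were Pld2 (-0.42, adjusted p = 0.0450, edgeR), a phospholipase that binds TREK-1, and Sort1 (-0.29, adjusted p = 0.0196, edgeR), which encodes sortilin, a sorting receptor whose propeptide product acts on TREK-1. With upper quartile scaling 6 of the 18 were called higher and 0 lower. Ywhab and Pld2 were close to the threshold and lost the call in 11 and 14 of 18 alternatives. The other 12 did not pass, among them Akap5, an anchoring protein of TREK channels (-0.038, adjusted p = 0.85, edgeR), and Gnaq (0.23, adjusted p = 0.0687, edgeR), which encodes the G protein alpha subunit through which receptors close TASK and TREK channels.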

How the data were processed

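Pooled contents of 2 neurons per sample were sequenced after SMART-seq V4 amplification and Nextera XT library preparation. The authors deposited raw counts per gene symbol. Reads were aligned with STAR 2.6.0 to mm10, stripped of PCR duplicates (RmDup) and counted with HTSeq 0.9.1 (versions from the submitters' processing notes). The annotation, the strand setting and the rule for overlapping genes are not given in the sources used here. Since reads carried no molecular identifiers, duplicate removal may discard real molecules of abundant genes, and floors cover counting error only.

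The test was edgeR 4.0.16 on the deposited counts, for genes with 10 or more counts in 3 or more samples (R 4.3.3, quasi-likelihood, robust, TMM, two-sided, no covariate, Benjamini-Hochberg over all genes tested). The study used DESeq2, which was an alternative here (1.42.0), as was limma-voom (3.58.1). Standard errors were derived from the fold change and its F statistic. CPM are relative to the total over the genes tested, scaled by TMM. Levels per kilobase used merged exons, and log2 ratios and log2 levels a pseudocount of 0.5 counts. GENCODE M21, on the same build, gave gene positions, exon lengths and GC content for 98.6% of symbols. RefSeq promoters were given for 6 of the 9 members. The GC content offset was a smooth trend per sample (mgcv 1.9.3). The fit and the offset were tested on simulated data.

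Members and gene lists were chosen with earlier results of these data known. The genes named were the members, the other two-pore genes, the partners past the threshold (1 of which is not reported here), the nearest genes of Kcnk2, Kcnk4 and Kcnk10, and genes that check the samples or overlap a member, the last, Akap5 and Gnaq being named after their values were seen. Samples of a group differed from each other beyond counting noise (chi-square over degrees of freedom from 1.94 to 5.36 over 12220 genes) and each was counted as a sample. Nothing in the labels ties samples to animals. P-values then measure only the spread between these samples, which may be partly technical. Alternatives comprised other tests, normalizations, filters, thinning to 1914497 counts, covariates, the replicate block over 6 samples and the omission of each sample.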

Additional observations from a re-analysis of the deposited data

Results flagged for a closer look

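Of 25 measures tested, 3 had 1 of the 4 temperature-responsive samples far from the other 3, where chance flags about 1 in 20 groups. For Kcnk2 this was sample 3, with 86.3 CPM against 65.5 to 68.9 CPM in the others (gap divided by range 0.838, above Dixon's critical value). For Kcnk10 it was the same sample, with 2.93 CPM against 6.55 to 7.05 CPM (0.879). Sample 3 also had the highest level of endothelial markers, with Cldn5 at 54.8 CPM against 18.8 to 26.7 CPM and Flt1 at 61.1 CPM against 18.8 to 25.3 CPM in the other temperature-responsive samples, and their part in these values was not tested. For Kcnk15 it was sample 1, with 0.936 CPM, or 2 counts, against 0 in the others (ratio 1).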

How the results depend on the processing

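With genes detected as a covariate, 1 gene passed the threshold in place of 4327 (2061 at an unadjusted p under 0.05), with 0 members and 0 partners or regulators (1 of each at an unadjusted p under 0.05, edgeR). With the GC content offset 1 member passed, and with thinning to the smallest total 1 (Kcnk3) of the 6 tested. The cause was not tested. Thinning left Kcnk4 untested, so its call was not checked at equal depth. The filter of at least 10 counts in every sample also left Kcnk4 untested. Same-numbered samples of the groups share only a number, and their deviations from the group means correlated at -0.13, -0.062 and 0.032. With the replicate block, 4120 genes passed, with 3 members and 7 partners or regulators, and with the replicate block with GC content offset 2723 genes, 0 members (1 lower at an unadjusted p under 0.05) and 3 partners or regulators. Omitting samples one at a time gave 2620 to 4583 genes, 1 to 3 members and 2 to 8 partners or regulators. The count of members was 1 without temperature-responsive sample 2 or without non-responsive sample 3. Kcnk9 was -0.76 with genes detected as a covariate and from -0.014 to 0.70 in the 4 omissions of a sample that still tested it, and Kcnk7 was -0.082 with that covariate. Kcnk4 was negative in all 16 alternatives that tested it and kept its call in 13 (adjusted p from 0.00514 to 0.573, edgeR), Kcnk3 in all 18 and 13 (adjusted p from 0.00091 to 0.661, edgeR), and Kcnk12 in all 18 and 8 (adjusted p from 0.00587 to 0.462, edgeR). The order of the 9 members per kilobase stayed the same with the longest transcript as the length, a pseudocount of 1 and each sample left out. Kcnk6 and Kcnk9 had under 20 counts in every sample and Kcnk10 in all but 1, and the size of difference such counts could show was not tested.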

Other observations

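The genes whose profile over the 7 samples lay nearest to a heat-sensitive member, by the root mean square difference of centred log2 CPM, were found for description only. For Kcnk4 these were N4bp2 (0.125) and Wdr55 (0.152), for Kcnk2 Socs7 (0.0561) and Cdc42se2 (0.0564), and for Kcnk10 Pam16 (0.149) and Thsd1 (0.152), where the median over all genes tested was 0.628, 0.306 and 0.555.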
